A study of Brachypodium distachyon with 8 samples.

Results

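The data describe how the leaf transcriptome of LNJ-expressing *Brachypodium distachyon* plants responded to methyl jasmonate (MeJA), a form of the plant hormone jasmonic acid that is applied as a spray. They come from 4 of the 8 mRNA-seq libraries of the study, chosen because their deposited tables carry the name ABI. That name is read here as the overexpressing line. There were 2 libraries from mock-treated plants (replicates 1 and 2) and 2 from plants given 100 μM MeJA (replicates 3 and 4). Each sample was made from the leaves of 12 plants of the accession Bd21-3 at 4 weeks of age, and the replicates are described as biological replicates. The overexpressing plants carried *LNJ* in an overexpression vector and were homozygous, and the labels do not say how many independent lines they came from. The other 4 libraries, also 2 mock-treated (replicates 5 and 6) and 2 MeJA-treated (replicates 7 and 8), are used here for comparison.

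The names of the samples conflict. The sample labels call the 4 chosen libraries wild type (WT) and the other 4 MTL-OX, whereas the names of their tables give the opposite genotype. *LNJ* mRNA was plentiful in all 4 libraries with the wild-type label and nearly missing from the 4 labelled MTL-OX. Below, "with LNJ" means the libraries labelled wild type and "without LNJ" those labelled MTL-OX. The treatment is the same in labels and table names, so the comparison of MeJA with mock does not depend on the genotype label.

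Jasmonate signaling is held in check by JAZ proteins, which bind MYC-type transcription factors and keep them inactive. The adaptor NINJA links JAZ proteins to the corepressor TOPLESS, so that jasmonate-responsive genes stay off. When active jasmonate accumulates, the receptor COI1 binds JAZ proteins and has them degraded, and the genes are released. In grasses and other plants jasmonate is known for defense against wounding and for restraint of growth. LITTLE NINJA (LNJ) is a microProtein, a short protein that resembles the JAZ-binding end of NINJA. The question of the comparison is which genes still respond to MeJA in plants that express it.

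The values are FPKM, fragments per kilobase of transcript relative to the mapped fragments of the library, divided by 1 factor per library so that the median gene is level. The libraries with LNJ hold between 13452995 and 15821699 fragments, as derived from the confidence bounds in the tables. The mock-treated ones are the deeper (15431594 and 15821699) and the MeJA-treated ones the shallower (13452995 and 13884892). Between 19637 and 19892 genes had a value above 0. A total of 14594 genes were abundant enough to be tested. The replicates with LNJ lay closer together than those without. Among the tested genes, 1.99% differed at least 2-fold between the mock replicates with LNJ and 0.466% between the MeJA replicates, against 6.97% and 3.15% without LNJ. Leaf identity could not be checked by marker genes, since the tables pair no names with the gene identifiers.

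The *LNJ* locus (BRADI1G69970, chromosome 1, 68443871 to 68444179, 309 bp) had 657 and 734 FPKM in mock-treated plants, from 884 and 876 fragments. After MeJA it had 562 and 541 FPKM, from 781 and 715 fragments. Both MeJA values lay below both mock values. The log2 fold change was −0.33 ± 0.25 SE (n = 2 and 2) and did not pass the test (limma adjusted p = 0.988), in which the spread is estimated from all 8 libraries, including those without LNJ. In the libraries without LNJ the locus was at 0 in 3 of 4 and had 1 fragment in the other, at 0.754 FPKM. The transcript was therefore present in both arms of the comparison.

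The *JAZ* gene (BRADI1G21490), which encodes a repressor of jasmonate-responsive genes, had 24.1 and 26.0 FPKM in mock-treated plants with LNJ. After MeJA it had 24.5 and 28.3 FPKM, so the groups overlapped (log2 fold change 0.07 ± 0.17 SE, limma adjusted p = 1). Without replicate 4 the estimate has the other sign, at −0.03. In plants without LNJ the gene stood at 51.1 and 39.0 FPKM in mock and 49.7 and 51.7 FPKM after MeJA. The responses of the 2 sets of plants differed by −0.11 ± 0.24 SE on the log2 scale, which did not pass the test.

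*NINJA* (BRADI2G11790), the adaptor between JAZ proteins and TOPLESS, had 18.1 and 17.0 FPKM in mock-treated plants with LNJ and 19.4 and 19.2 FPKM after MeJA. The MeJA values were the higher, by 0.13 ± 0.15 SE on the log2 scale (limma adjusted p = 1). Without LNJ it had 19.6 and 23.4 FPKM in mock and 19.6 and 24.1 FPKM after MeJA. Neither *JAZ* nor *NINJA* passed the test in plants with LNJ, and with 2 libraries in each group small changes could not be detected.

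**Figure D1:**
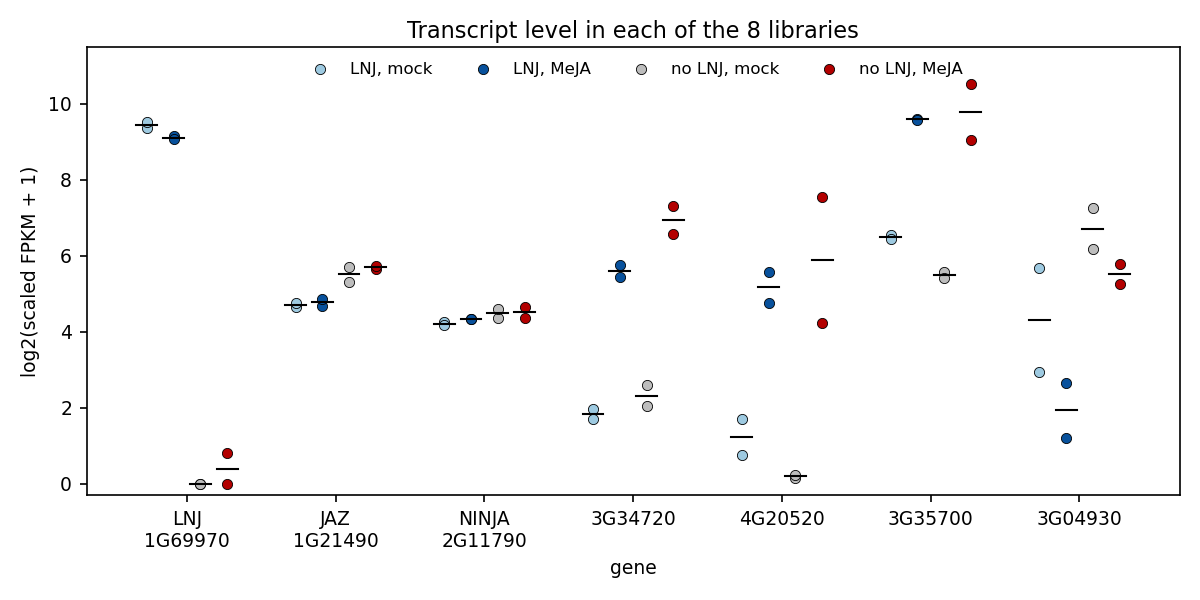
Transcript level of *LNJ*, *JAZ*, *NINJA* and 4 other genes in each of the 8 libraries, as log2(scaled FPKM + 1). Each point is 1 library and each bar the mean of 2 libraries. *LNJ* is high in both groups with LNJ, *JAZ* and *NINJA* are level between mock and MeJA, and BRADI3G34720, BRADI4G20520 and BRADI3G35700 stand higher in all MeJA libraries than in the mock libraries of the same plants.

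Most genes moved little with MeJA in plants with LNJ. The median log2 fold change over the 14594 tested genes was −0.003, and 90% of the genes lay between −0.40 and 0.44. Genes were called at a limma adjusted p of at most 0.05 and a change of at least 2-fold. By this rule 2 genes rose (0.0137% of those tested) and 1 fell (0.00685%). A total of 908 genes had an unadjusted p of at most 0.05 (6.22%). With 2 libraries per group, replicates often separate by ordering alone, without any response. Both MeJA replicates lay above both mock replicates for 2978 genes (20.4%) and below them for 2911 (19.9%), whatever the size of the change. Of these, 137 genes were at least 2-fold higher after MeJA (0.939% of the tested genes), and 68 at least 2-fold lower (0.466%). These are called the higher and the lower genes below. An unadjusted limma p of at most 0.05 was reached by 108 of the 137 and 61 of the 68. The lists were chosen on the same values, so these counts are no separate support for them.

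**Figure D2:**
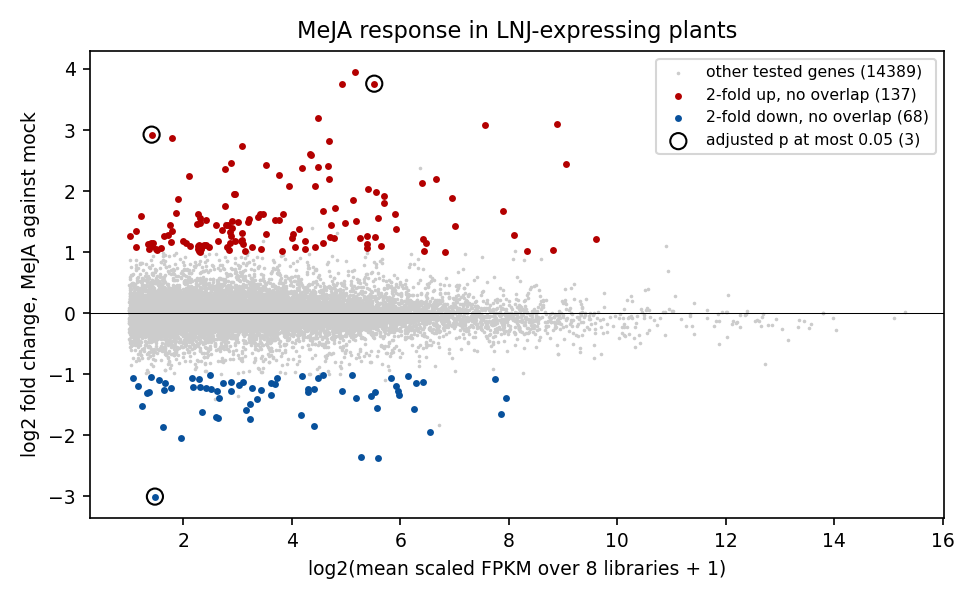
Log2 fold change of MeJA against mock in plants with LNJ (y axis) against the log2 of the mean scaled FPKM over 8 libraries plus 1 (x axis), 1 point per tested gene. Red points are the 137 genes at least 2-fold higher and blue points the 68 genes at least 2-fold lower with no overlap of replicates, and the 3 circled genes also passed the adjusted p.

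BRADI3G34720 (chromosome 3, 37082528 to 37087778) had the largest increase of the called genes on the fitted log2(FPKM + 1) scale. It had 2.24 and 2.92 FPKM in mock-treated plants with LNJ and 42.3 and 52.7 FPKM after MeJA. Every MeJA library was far above every mock library (log2 fold change 3.76 ± 0.29 SE, limma adjusted p = 0.0232). The gene rose in plants without LNJ as well, from 3.15 and 5.02 FPKM to 93.3 and 157 FPKM (log2 fold change 4.61 ± 0.29 SE, limma adjusted p = 0.00889). With LNJ the gene passed in 5 of the 9 alternative settings of the full set of libraries or groups. Its limma adjusted p in plants with LNJ was 0.0644 when genes in overlapping loci were left out of the fit. It was 0.0703 with 0.1 in place of 1 added to the FPKM. Without a filter on low values it was 0.0613, and with a mean of at least 5 FPKM 0.0556.

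The other 2 called genes lie in loci that overlap a neighbor. BRADI1G76510 (chromosome 1, 73082489 to 73085333) was at 0 FPKM in both mock libraries and at 5.69 and 7.62 FPKM after MeJA. It was also at 0 in all 4 libraries without LNJ. The fitted log2 fold change was 2.92 ± 0.19 SE (limma adjusted p = 0.0133). The gene was abundant enough to be tested only through the MeJA libraries with LNJ. The groups at 0 add no spread to the fit, which makes the SE small. With 0.1 in place of 1 added to the FPKM, the limma adjusted p was 0.193. The gene passed in 6 of the 7 alternative settings of the full set of libraries or groups that tested it. A floor of 3 fragments over the 2 mock libraries covers counting error only, not the division of fragments between overlapping loci. Against that floor the gene was at least 93.5-fold higher after MeJA in the fragments assigned to it. It shares 535 bp with BRADI1G76500, which had 46.9 and 49.8 FPKM in mock and 28.7 and 32.0 FPKM after MeJA (log2 fold change −0.66 ± 0.17 SE, adjusted p = 0.520). The fragments of both loci together numbered 1038 and 1043 in mock and 777 and 858 after MeJA, so their sum was not higher after MeJA.

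BRADI4G03220 (chromosome 4, 2562252 to 2566013) showed the opposite picture. It had 8.41 and 5.82 FPKM in the mock libraries and 0 FPKM in both MeJA libraries, and 0 in the 4 libraries without LNJ. The fitted log2 fold change was −3.00 ± 0.20 SE (limma adjusted p = 0.0133), and against the same floor the gene was at least 142-fold lower after MeJA. It shares 1648 bp with BRADI4G03230. The fragments of both loci together numbered 1766 and 1419 in mock and 1511 and 1497 after MeJA, which overlap. Overlapping loci made up 4.08% of the tested genes and 2 of the 3 called genes. With all 595 of them left out, no gene passed the adjusted p, and 869 had an unadjusted p of at most 0.05. The division of fragments between overlapping loci was made by the abundance program, and its part in these 2 calls was not tested.

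**Figure D3:**
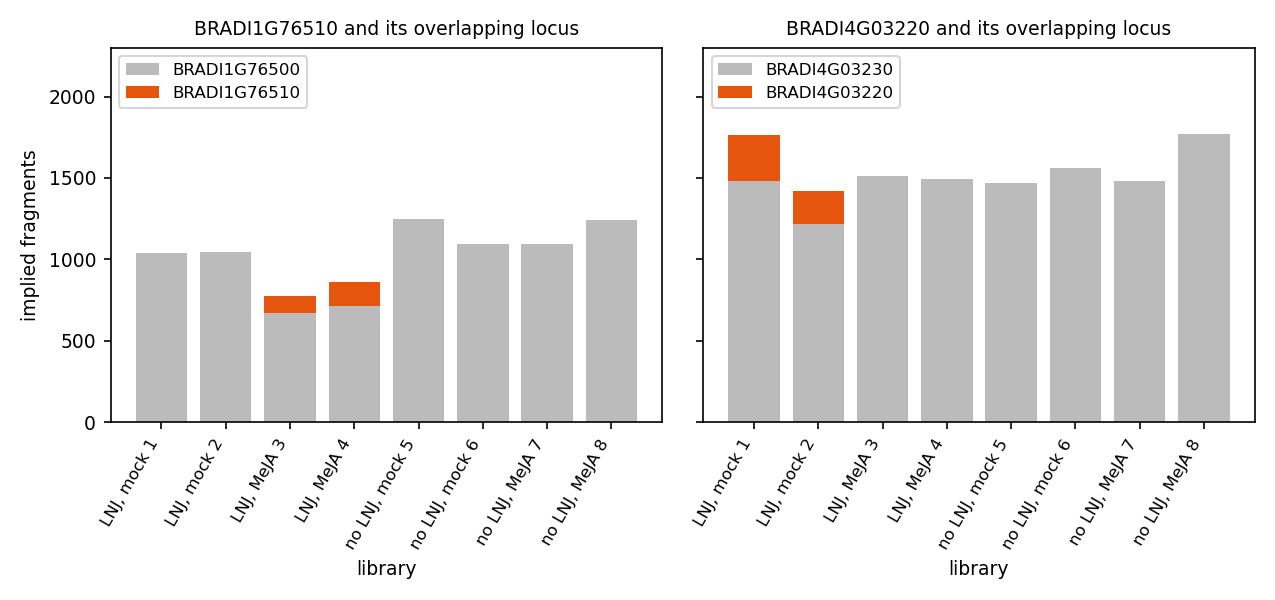
Implied fragments listed for BRADI1G76510 and BRADI4G03220 (orange) and for the loci that overlap them (grey), 1 bar per library. The orange part is present only in the MeJA libraries with LNJ for BRADI1G76510 and only in the mock libraries with LNJ for BRADI4G03220, while the whole bars of the second pair overlap between mock and MeJA.

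The gene with the largest fitted increase was BRADI4G20520. It had 0.683 and 2.25 FPKM in mock-treated plants with LNJ and 26.3 and 47.0 FPKM after MeJA, without overlap. The log2 fold change of 3.95 ± 0.96 SE did not pass the adjusted p in limma (0.476). In plants without LNJ it had 0.123 and 0.178 FPKM in mock and 17.8 and 186 FPKM after MeJA, and the MeJA replicates lay far apart. Among the lower genes, BRADI3G04930 was next to BRADI4G03220 in size of change on the fitted log2(FPKM + 1) scale, which understates the change of genes at 0 after MeJA. It had 6.66 and 50.0 FPKM in mock and 1.30 and 5.35 FPKM after MeJA (log2 fold change −2.37 ± 0.90 SE, limma adjusted p = 0.740). The lower mock value was near the higher MeJA value, and leaving out single libraries moved the estimate between −3.74 and −1.001.

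The 137 higher genes had a median of 3.80 FPKM in mock and 13.9 FPKM after MeJA. They were chosen for a change of at least 2-fold, and their median log2 fold change was 1.38. Of them, 27 were at least 4-fold and 6 at least 8-fold higher in the fit. They were spread over all 5 chromosomes, with 43 on chromosome 1 and 9 on chromosome 5. Their shares of 31.4% and 6.57% stand beside 30.5% and 9.29% of all tested genes. By level, 0.782% of the genes with a mean between 1 and 5 FPKM were on the list, and 1.25% of those with 100 FPKM or more. The median length of their loci was 1829 bp, against 3368 bp for all tested genes. In 23 of them every library with LNJ held under 100 fragments.

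The 68 lower genes had a median of 10.8 FPKM in mock and 3.31 FPKM after MeJA. Their median log2 fold change was −1.26, or −1.27 with the 4 genes at 0 in both MeJA libraries placed at their bound for counting error. In the fit 4 were at least 4-fold lower. Among genes that separated the replicates and changed at least 2-fold, downward changes were therefore fewer and smaller than upward ones in the fit. Without the 2-fold rule, 2978 genes were higher and 2911 lower. The fitted log2(FPKM + 1) scale understates the change of low genes. Overlapping loci held 6 of the 137 higher and 5 of the 68 lower genes.

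Some of the higher genes stood next to each other on a chromosome. Of the 137, 18 had another higher gene as the next listed gene on either side (13.1%), while 127 of the 14411 other tested genes with a BRADI identifier did (0.881%). They formed 10 neighboring pairs in 8 runs, of which 7 were pairs and 1 held 4 genes. The loci of none of the 10 pairs overlap. Among the 68 lower genes 2 stood next to each other (2.94%, against 0.511% of the other tested genes counted in the same way). Whether neighbors are alike in sequence, so that reads could be shared between them, was not analysed here.

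The run of 4 is on chromosome 3, from BRADI3G35670 to BRADI3G35700 (37975908 to 38004022, a span of 28115 bp), and was singled out after its values were seen. BRADI3G35670 (37975908 to 37978377) had 3.07 and 2.97 FPKM in mock and 9.56 and 11.1 FPKM after MeJA. BRADI3G35680 (37979394 to 37981855) had 43.6 and 44.5 FPKM, then 170 and 162 FPKM. BRADI3G35690 (37986914 to 37989741) had 0 and 0.0583 FPKM in mock, from 0 and 1 fragments, and 7.30 and 5.84 FPKM after MeJA. In fragments per library total the last of these was 239-fold higher after MeJA, with a 95% exact interval of 42.4 to 9482 that covers counting error only. BRADI3G35700 (38002098 to 38004022), the most abundant, had 91.6 and 86.5 FPKM, then 778 and 754 FPKM.

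In all 4 genes the MeJA replicates lay close to each other and above both mock replicates. The log2 fold changes were 1.49 ± 0.44, 1.89 ± 0.46, 2.87 ± 0.27 and 3.09 ± 0.42 SE in chromosomal order. None passed the limma adjusted p in the fit of 8 libraries (0.602, 0.476, 0.0563 and 0.159). Outside the run, 14 tested genes among the 12 listed on either side lay between −0.52 and 0.20. The 4 genes also stood higher after MeJA in plants without LNJ, with log2 fold changes of 2.16, 2.77, 2.01 and 4.30. BRADI3G35700 passed the test there (limma adjusted p = 0.0328). The differences between the responses did not pass the test.

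**Figure D4:**
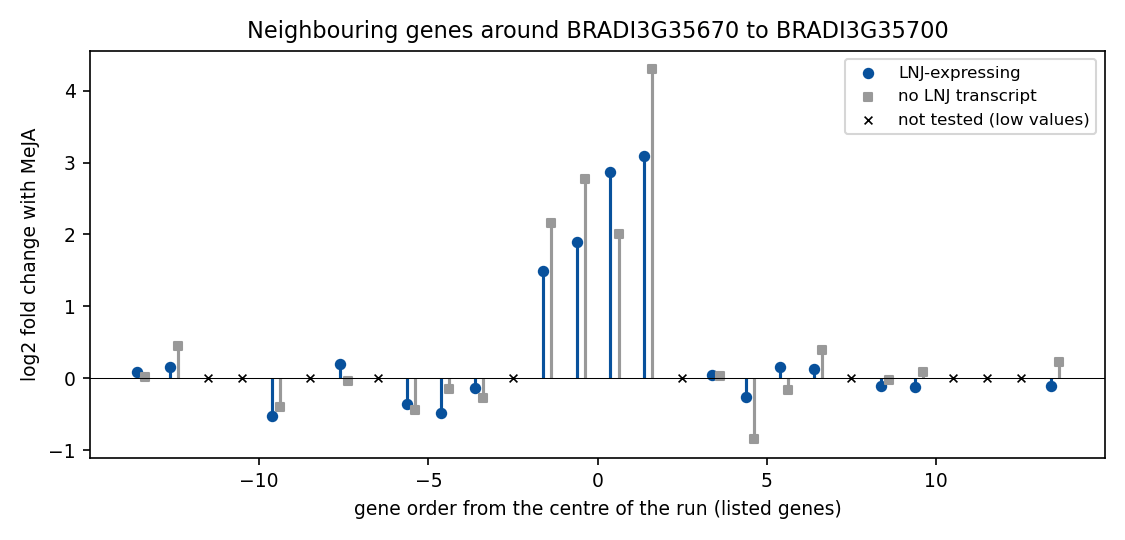
Log2 fold change of MeJA against mock along the gene order around the run on chromosome 3, with LNJ (blue circles) and without LNJ (grey squares). The x axis counts listed genes from the centre of the run, and crosses are genes too low to be tested. The 4 genes of the run lie above 0 in both sets of plants and the tested genes around them with LNJ lie between −0.52 and 0.20.

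The responses of the higher and lower genes were then read in the 4 libraries without LNJ, which share no sample with the comparison that chose them. Of the 137 higher genes 123 were also higher after MeJA there (89.8%, against 48.5% of all tested genes), and their median log2 fold change was 0.90. At least 2-fold higher there were 64 of the 137, against 245 of the 14594 tested genes (1.68%). Among the 15 largest increases with LNJ, 13 had the same sign without it and 10 were at least 2-fold higher. Of the 68 lower genes 56 were also lower (82.4%, against 51.5% of all tested genes), with a median of −0.61. At least 2-fold lower there were 25 of the 68, against 125 of all tested genes (0.857%). Of the 15 largest decreases, 13 had the same sign without LNJ and 9 were at least 2-fold lower. By the same rule as with LNJ, 219 genes were higher and 109 lower without it (1.5% and 0.747% of the tested genes). Past the adjusted p there were 11 and 9 (0.0754% and 0.0617%). The upward lists shared 59 genes, 43.1% of the list with LNJ and 26.9% of the list without. The downward lists shared 24, which is 35.3% and 22.0%. On opposite lists were 3 of the higher and 0 of the lower genes.

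**Figure D5:**
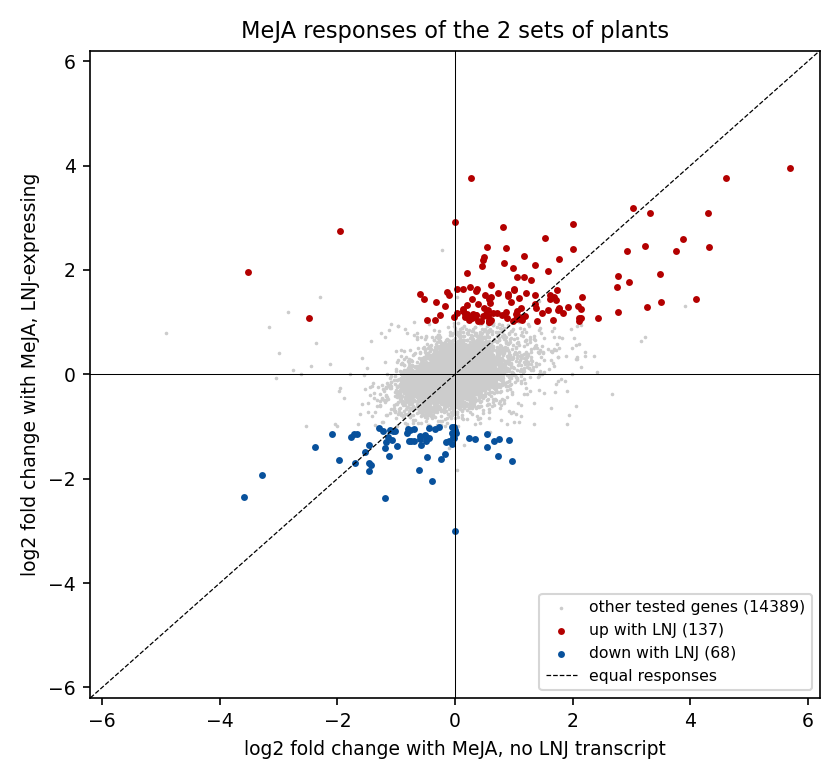
Log2 fold change with MeJA in plants without LNJ (x axis) against plants with LNJ (y axis), 1 point per tested gene. Red and blue points are the genes higher and lower with LNJ, and the dashed line marks equal responses. Of the red points 123 of 137 lie right of 0 and of the blue points 56 of 68 lie left of 0.

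Over all tested genes the MeJA replicates differed by a median of 0.13 on the log2 scale with LNJ and 0.20 without. Over the higher genes the medians were 0.34 and 0.71, but these genes were chosen for separate replicates with LNJ, which favors a smaller value there. Replicate 8 was above replicate 7 for 106 of the 137 genes, with a median log2 ratio of 0.52. Replicate 4 was above replicate 3 for 43 of the 137, with a median log2 ratio of −0.18. The part of this difference between replicates in the comparison of the responses was not tested.

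The difference between the MeJA response with LNJ and that without was tested for every gene. No gene passed the limma adjusted p of 0.05 (smallest 0.0877), and 627 had an unadjusted p of at most 0.05 (4.3%). In 87 genes the fitted response with LNJ was the more positive by at least 2-fold, with no overlap of the responses over all pairings of MeJA and mock libraries (0.596%), and in 136 it was the more negative (0.932%). Of the higher genes, 32 had an unadjusted p of at most 0.05 for the difference, and 28 of these moved more with LNJ. That direction is favored by the choice of the genes on the response with LNJ.

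The 2 genes with the largest positive differences were low in mock-treated plants with LNJ. BRADI1G48830 had 0.374 and 0.0790 FPKM in mock and 0 and 3.42 FPKM after MeJA with LNJ. Without LNJ it had 179 and 114 FPKM in mock and 18.9 and 0.152 FPKM after MeJA. Its difference was 5.70 ± 1.80 SE on the log2 scale (unadjusted p = 0.016, limma adjusted p = 1). BRADI4G11320 likewise had 0.630 and 0 FPKM, then 10.8 and 1.07 FPKM with LNJ, and 31.6 and 8.87 FPKM, then 1.03 and 0.213 FPKM without (difference 5.47 ± 1.24 SE, limma adjusted p = 1). In both genes the values with LNJ were low before treatment and the MeJA replicates lay apart.

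In the other direction, BRADI4G03220 had the largest difference among genes whose responses did not overlap (−3.00, limma adjusted p = 0.0877). It lies in an overlapping locus as described above, and its groups at 0 make the SE of this difference small as well. BRADI2G56970 followed. It had 9.85 and 8.55 FPKM in mock and 2.72 and 6.41 FPKM after MeJA with LNJ, and 4.20 and 1.78 FPKM, then 14.1 and 12.5 FPKM without (difference −2.86 ± 0.54 SE, limma adjusted p = 0.756). The gene was thus lower after MeJA in the 2 libraries with LNJ and higher in the 2 without, with no overlap in either set.

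BRADI1G17850 was singled out after its values were seen. It had 2.64 and 5.34 FPKM in mock and 26.9 and 23.1 FPKM after MeJA with LNJ (log2 fold change 2.43 ± 0.25 SE, limma adjusted p = 0.0660). Without LNJ it had 4.97 and 5.03 FPKM, then 7.52 and 7.97 FPKM. The response with LNJ was larger by 1.89 ± 0.35 SE on the log2 scale, with an unadjusted p of 0.00107 and a limma adjusted p of 0.756.

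The tables also list ribosomal RNA loci, which can show differences in how well mRNA was selected. All 43 tested rRNA loci were lower after MeJA in plants with LNJ, with a median log2 fold change of −0.25, and none was called. They took 2.15% and 2.09% of the fragments in mock and 1.66% and 1.97% after MeJA. The shares without LNJ were 2.28% and 2.01%, then 1.87% and 2.39%. The part of this shift in the other results was not tested. Copies of plastid genes (24 tested) had a median log2 fold change of 0.04, and none was called. The samples are whole leaves, so fewer cells of a type and less RNA per cell cannot be told apart in any of these values.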

How the data were processed

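The authors prepared TruSeq libraries from total RNA, sequenced them on a HiSeq2000, aligned the reads with TopHat2 and estimated abundance with Cufflinks in Galaxy. FastQC is also named in the submitters' processing notes. The deposited unit is FPKM per gene with its confidence bounds, 1 table per sample, not pooled. The genome build is not given in the sources used here, and coordinates are those of the tables (start counted from 1). The methods describe 5 sprays 3 days apart with harvest 30 minutes after the last in 1 paragraph and 3 sprays 2 days apart in another, and the labels do not say which applies.

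The 27833 rows of a table hold 27830 identifiers, and repeated ones were added up. Status was OK for all but 2 genes in 1 library. FPKM was scaled by median ratios over 17713 genes (factors from 0.850 to 1.11). Fragments behind a value were taken from the width of its upper confidence bound, assuming counting error. Of values under 20 fragments, 83.7% to 84.8% came out whole within 0.05. Genes with a mean of at least 1 FPKM and 10 fragments entered a limma fit (version 3.58.1, R 4.3.3) on log2(FPKM + 1), a scale that understates the change of low genes. The fit used 8 libraries, 4 group means and a mean-variance trend (4 residual degrees of freedom), with Benjamini-Hochberg adjustment. The call needed an adjusted p of at most 0.05 and 2-fold. "No overlap" means that every MeJA value lies on the same side of every mock value. P-values rest on 2 libraries per group. Tables were read and counted in Python 3.11.15 with numpy 2.4.6 and pandas 2.3.3. The fit was run on simulated data with changes placed only in the more abundant genes, so that run does not cover genes at 0.

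Printed identifiers are the genes named by the study, the called genes and the loci that overlap the called genes. They include the 2 largest rises and falls per comparison among genes without overlap and with an unadjusted limma p of at most 0.05. The rest were singled out, flagged for opposite movement, or changed sign when a library was left out. Lists of named pathways, tissue markers and sequences were not analysed here, because the tables give BRADI identifiers that could not be matched to the annotation used. Members and lists were chosen with earlier results of these data known.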

Additional observations from a re-analysis of the deposited data

Results flagged for a closer look

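The search covered genes named by the study, called genes, the 15 largest rises and falls, and the 5 largest differences in each direction. With LNJ (the libraries labelled wild type) and without it, the MeJA replicates of 6 of these genes moved in opposite directions with no overlap. Other tested genes were not searched in this way, so 6 is not a count over all tested genes. The difference between the responses, on the log2 scale, was 4.70 for BRADI2G12960, 5.47 for BRADI4G11320, −2.64 for BRADI1G61010, −2.86 for BRADI2G56970, −2.71 for BRADI1G76570 and −2.65 for BRADI5G02010. The limma adjusted p of these differences was between 0.756 and 1, so none passed the test. BRADI5G02010 had 14.9 and 23.7 FPKM in mock and 12.1 and 12.1 FPKM after MeJA with LNJ, and 5.19 and 2.63 FPKM, then 14.8 and 23.3 FPKM without. BRADI2G12960 had 1.65 and 0.728 FPKM, then 27.0 and 6.31 FPKM with LNJ, and 14.3 and 6.05 FPKM, then 2.61 and 0.977 FPKM without.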

How the results depend on the processing

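The counts of called genes with LNJ (2 up, 1 down) and of different responses (0) depended on the settings. Without scaling 2 fell. A pseudocount of 0.1, a mean of at least 5 FPKM and an adjusted p of at most 0.001 each gave 0 up and 0 down, as did leaving out genes in overlapping loci, an alternative added after the data were seen. Without a filter 1 rose, 3 fell and 6 responses differed. Without the minimum of fragments 2 fell and 2 responses differed. Without the mean-variance trend 3 responses differed. Fitting only the 4 libraries with LNJ gave 35 up and 11 down. By fold and separation alone the counts were 137, 68 and 223. Leaving out single libraries gave 0 to 9 up, 0 to 1 down and 0 to 1 differences. The 0 up came without WT mock replicate 1 or WT MeJA replicate 3 or 4, and the 9 without MTL-OX MeJA replicate 7 or 8. Without WT MeJA replicate 4 the fold change changed sign for *JAZ* (BRADI1G21490), BRADI1G48830 and BRADI1G08340. Over the libraries left out their log2 fold changes ranged from −0.0277 to 0.1735, −0.28 to 1.86 and −0.18 to 1.99. Of 669 alternatives for single genes 623 kept direction and side of the threshold, 25 newly passed and 18 no longer passed. Only the 3 called genes were past the threshold in the main fit, so all 18 alternatives that no longer passed are theirs. In alternatives that kept every library of a group, BRADI1G76510 and BRADI4G03220 each passed in 6 of 7, and BRADI3G34720 in 5 of 9. Causes were not tested. No paired analysis was possible because the labels number the samples 1 to 8 without repeating a number. Depth limits genes under about 10 fragments.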
